A study of Mus musculus with 6 samples.

Results

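The type I interferon response genes described here are 40 mouse genes chosen by symbol: the receptor chains, the factors that carry the signal to the nucleus, the nucleic acid sensors and the antiviral effectors that interferon induces. Each symbol was matched to 1 Ensembl identifier, and all 40 were among the 57132 genes of the deposited table. Messenger RNA was sequenced from dendritic cells, the antigen-presenting sentinels of the immune system, raised out of bone marrow with the cytokine GM-CSF. Marrow came from C57BL/6 female mice aged 6 to 8 weeks, with GM-CSF at 15 ng/mL, fresh medium on days 2 and 4 and harvest on day 5. The comparison was of cultures without queuine (0Q) with cultures given 100 nM queuine (100Q), 3 libraries in each. Queuine is the base that cells insert into certain tRNAs as queuosine. Both groups shared the medium, its dialyzed serum and GM-CSF, and the labels name no interferon, virus or other stimulus. Wells were plated in triplicate. Whether each held another animal's cells is not stated, and the p-values therefore reflect the spread among these cultures alone, which may be technical.

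Type I interferons bind the receptor chains encoded by Ifnar1 and Ifnar2. The kinases JAK1 and TYK2 then start a phosphorylation cascade that brings STAT2 and IRF9 together in the complex ISGF3. ISGF3 binds the interferon-stimulated response element in promoters of its target genes. Many dendritic cells and their precursors keep a low tonic level of this program without infection, and IRF7, itself a target, amplifies interferon production once the program is switched on.

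The response element can be read directly in the promoters of several members. Promoter sequences from RefSeq (GRCm38.p6; 300 bases around each start, most of them upstream) were found for 31 of the 40 genes. The entries not found were Mx1, Mx2, Oas2, Usp18, Rigi, Dhx58, Zbp1, Rtp4 and Parp14. The core, GAAANN followed by GAAAC, searched on both strands, was present for 13 of the 31 genes, or 41.9%, against 0.944% of the 27025 genes in the promoter table. The windows below are examples from genes whose levels are described next, from near-silent targets (Isg15, Ifit1) to more abundant ones (Gbp2, Bst2). Gbp3 and Trim30a also had a core before the start and are not shown. In Ifitm3, Ifih1 and Eif2ak2 every core lay after the annotated start, so they have no such window. All windows shown lie before the annotated start, run 5′ to 3′ along the gene and carry the core, or its reverse complement, in capitals.
Isg15: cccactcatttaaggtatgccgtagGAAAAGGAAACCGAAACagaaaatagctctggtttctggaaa
Ifit1: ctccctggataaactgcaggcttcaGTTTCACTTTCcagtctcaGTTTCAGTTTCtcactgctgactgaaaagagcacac
Ifit3: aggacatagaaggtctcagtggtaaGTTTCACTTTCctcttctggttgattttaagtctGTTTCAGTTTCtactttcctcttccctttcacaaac
Oas1a: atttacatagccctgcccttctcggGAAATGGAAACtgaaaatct
Stat2: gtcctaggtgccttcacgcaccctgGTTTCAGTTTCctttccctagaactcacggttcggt
Bst2: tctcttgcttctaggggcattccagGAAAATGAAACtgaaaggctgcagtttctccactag
Gbp2: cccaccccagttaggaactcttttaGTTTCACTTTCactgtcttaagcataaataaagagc
Irgm1: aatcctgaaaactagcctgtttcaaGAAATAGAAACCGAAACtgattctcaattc

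On GRCm38.p6 these windows are chr4:156200855-156200921 (Isg15, minus strand), chr19:34640759-34640838 (Ifit1, plus), chr19:34583347-34583441 (Ifit3, plus), chr5:120907526-120907570 (Oas1a, minus), chr10:128270250-128270310 (Stat2, plus), chr8:71537567-71537627 (Bst2, minus), chr3:142620578-142620638 (Gbp2, plus) and chr11:48871421-48871475 (Irgm1, minus). Isg15 and Irgm1 each held 2 overlapping cores, and Ifit1 and Ifit3 each held 2 that were apart. The looser form, GAAANN followed by GAAA, which includes every match of the core, was present for 17 of 31 members (54.8%) and for 3.99% of all genes in the table. The 13 members with the core had a median of 4.22 TPM and ranged from 0.411 to 385 TPM in level per length (TPM, counts per kilobase of merged exons scaled to a common sum). The 18 without it had a median of 1.63 TPM and ranged from 0 to 612 TPM, so the ranges overlapped. Of the 10 tested members with the core, 6 had estimates above 0 with queuine, with a median log2 fold change of 0.08. Of the 13 tested members without it, 7 did, with a median of 0.02.

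Libraries held 3675918 to 6755367 counts without queuine and 4484785 to 19386533 with it. The library 100Q replicate 3 was the deepest. The library 0Q replicate 1 stood apart, with 0.244% of counts on nuclear rRNA against 0.120% to 0.141% in the other 5. The dendritic cell markers Itgax (67.6 to 150.1 CPM, counts scaled to library size) and H2-Aa (482 to 666 CPM) were present in all 6 libraries. Itgax, the smallest-p gene of 12 listed dendritic markers, was higher in all 3 libraries given queuine (unadjusted p = 0.0174 and adjusted p = 0.999 by edgeR). H2-Aa had 577 ± 91.9 CPM without queuine and 580 ± 76.5 CPM with it (SD, n = 3 each). Of the 12, 9 had estimates above 0 (75%, against 50% of all tested genes) and 3 below. Groups were apart for 25% of them, against 8.27% of all tested genes. Markers of other myeloid cells were present too, at higher sums than the dendritic list (930 to 1084 CPM without queuine and 971 to 1094 CPM with it). Macrophage and monocyte markers summed to 18790 to 20841 and 18709 to 22551 CPM, with Lyz2 alone at a mean of 18150 CPM. Mast cell, basophil and eosinophil markers summed to 1584 to 1814 and 1400 to 1847 CPM. Sums over different genes do not give shares of cells. Granulocyte markers summed to 16950 to 19869 CPM without queuine and 14138 to 17219 CPM with it, with 10 of 10 detected, 9 of 10 estimates below 0 and 3 lower at an unadjusted p under 0.05. Those are 10% of the list above 0 and 30% at that p, against 50% and 2.93% of all tested genes. Of 8 listed markers of plasmacytoid dendritic cells, a major source of type I interferon, 7 were detected. Siglech was at 0 to 2.11 CPM, Ccr9 at 0 to 1.90 CPM and Klk1 at 0. Runx2 was higher, at 36.3 ± 8.92 CPM without queuine and 41 ± 7.65 CPM with it (SD, n = 3 each). So was the member Bst2, at 27.0 ± 2.82 and 22.1 ± 6.35 CPM. The whole list summed to 82.5 to 106 CPM without queuine and 81.4 to 98.6 CPM with it. In such bulk samples fewer cells of a type and less RNA per cell cannot be told apart. The part of these cell types in the values below was not tested.

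The cultures held transcripts of both receptor chains and of Stat2 and Irf9, and few counts of many induced genes. Whether they could answer interferon was not measured. None of the 19 listed type I and type III interferon genes, Ifnb1 and the Ifna family among them, had a count in any library. A count of 0 allows up to 3 counts, which is 0.159 CPM in 100Q replicate 3 and 0.833 CPM in 0Q replicate 3, and such limits cover counting error only. Ifng, the type II interferon, was also at 0 in all 6. Of the 40 members, 28 passed the filter on low counts and 12 did not. That filter asks for enough counts in as many libraries as a group holds.

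Per length, the order of levels was led by 2 nearby genes on chromosome 7. Ifitm2 stood at 612 ± 43.5 TPM without queuine and 611 ± 36.2 with it (SD, n = 3 each), and Ifitm3 at 403 ± 22.2 and 367 ± 53.6. Both encode small membrane proteins that block virus entry. Expected counts of both were not whole and Ifitm2 overlaps the coding gene Gm45717, so some reads were divided between genes. Bst2, or tetherin, followed at 49.3 ± 2.83 and 41.6 ± 10.98. Samhd1, which depletes nucleotides needed by viruses, stood at 31.1 ± 4.41 and 34.5 ± 3.32, and with the longest transcript as length it ranked above Bst2. The lowest library of Ifitm2 lay above the highest of Ifitm3, and likewise for Ifitm3 above Bst2. From Bst2 downward every neighbour in the order overlapped the next over the 6 libraries. The median over the 40 members was 2.40 TPM, 8 stood at 10 or more and 11 below 1.

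**Figure D1:**
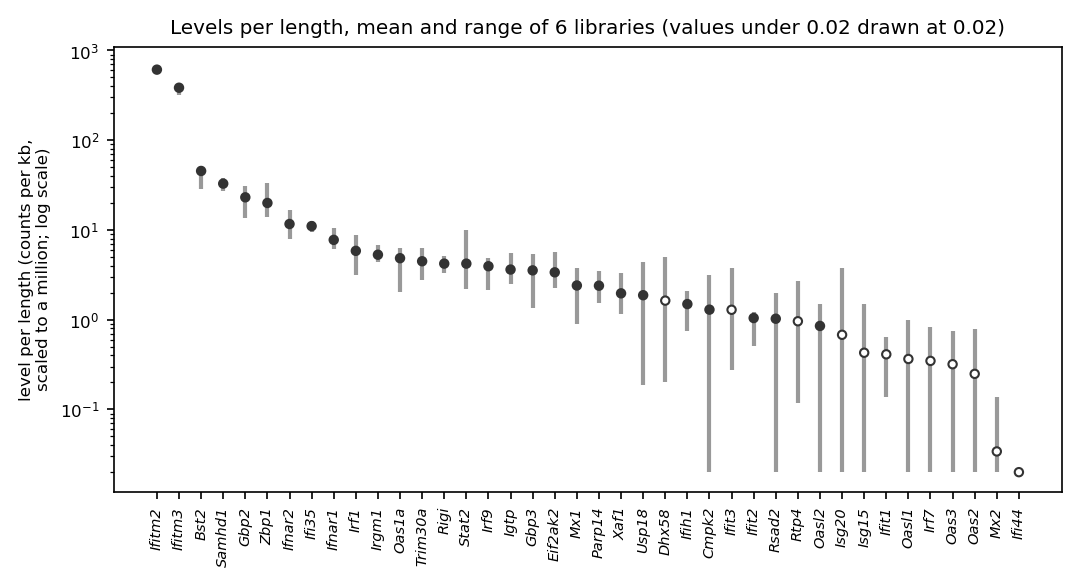
Level per length of each member on a log axis, in descending order. Points are means of the 6 libraries, bars run from the lowest to the highest library, and open points are the 12 members that did not pass the filter on low counts. Ifitm2 and Ifitm3 stand apart at 612 and 385 TPM, and Ifi44 is at 0.

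Near-silent members included the classical targets. Isg15, the ubiquitin-like modifier that is among the genes most strongly induced by interferon (ENSMUSG00000035692, chromosome 4, 156283883 to 156285303, GRCm39), had 0, 1 and 0 counts without queuine (0Q replicates 1, 2 and 3) and 0, 1 and 10 with it. Irf7, the amplifier of interferon production (ENSMUSG00000025498, chromosome 7, 140842619 to 140846398), had 8, 4 and 0 counts without queuine and 6, 1 and 2 with it. Its gene overlaps Phrf1 on the opposite strand, so some of these few reads may belong to that gene. Ifi44 had 0 counts in all 6 libraries. Mx2, whose product acts against viruses in mice that carry an intact allele, had 3.02 expected counts in all. The other 8 members below the filter were Oas2, Oasl1, Isg20, Oas3, Ifit1, Rtp4, Ifit3 and Dhx58, with 14 to 119.79 counts over the 6 libraries. These 12 did not enter the main edgeR test between the groups.

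**Figure D2:**
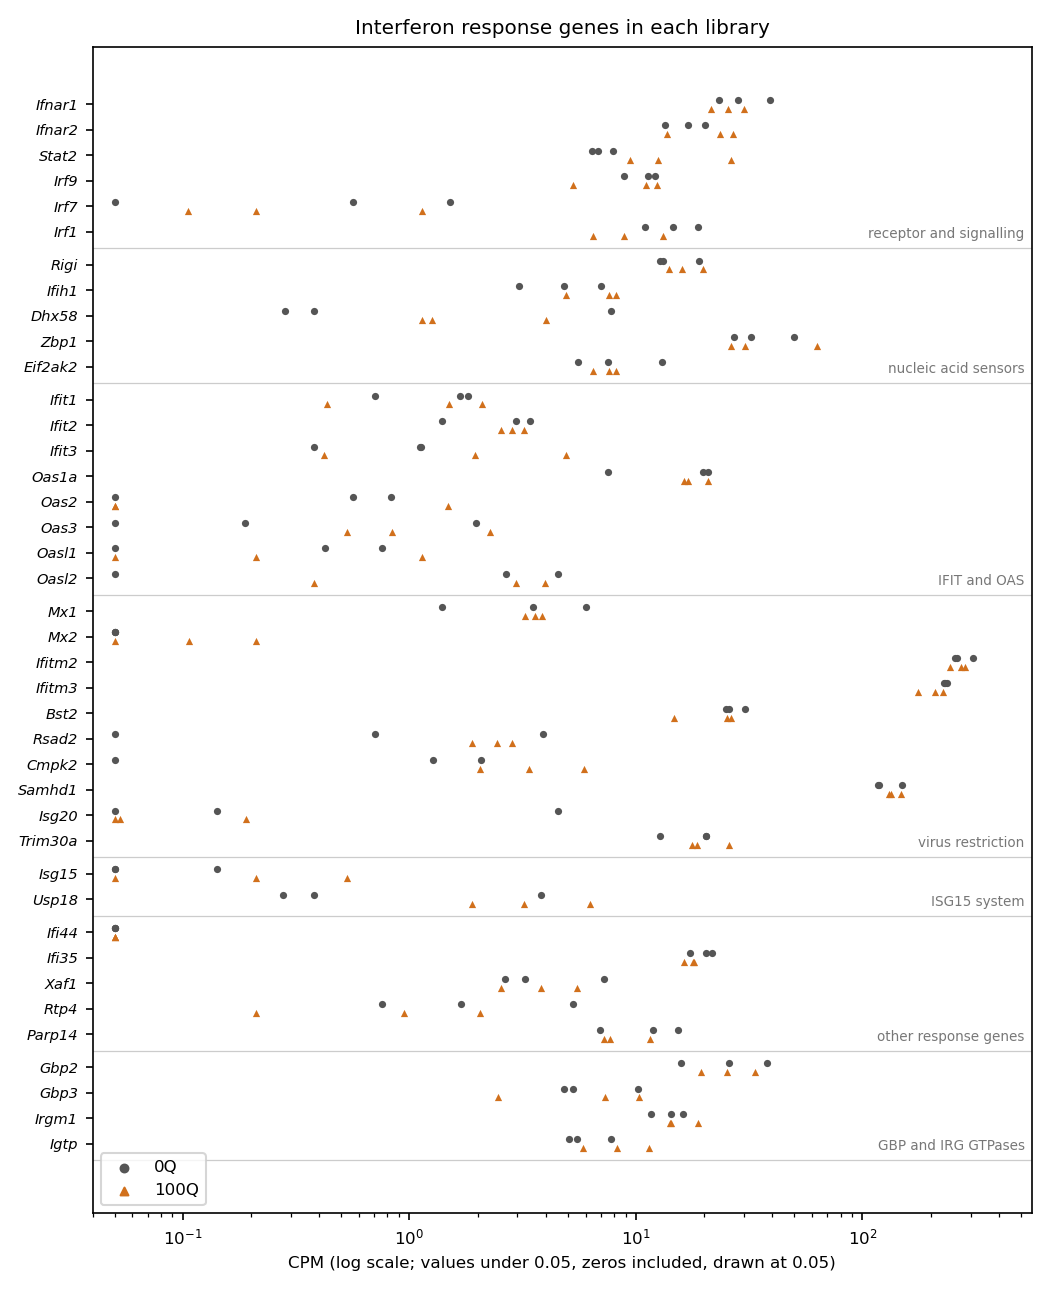
CPM of all 40 members in each library on a log axis, with 0Q as grey circles and 100Q as orange triangles, ordered by role. The groups lie side by side for most members, Stat2 is higher in all 3 libraries of 100Q, and values at 0 are drawn at the left edge.

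Between cultures with and without queuine, no member passed the test. With edgeR's quasi-likelihood test, 0 of the 28 tested members had a Benjamini-Hochberg adjusted p under 0.05, as did 0 of all 10554 tested genes (0%). All 28 members had adjusted p = 0.999. Stat2 was the 1 member whose unadjusted p was under 0.05, which is 3.57% of the 28 against 2.93% of all tested genes. DESeq2, which also fitted less abundant genes, called 0 of 39 members and 0 of 21304 genes, with 2 members (Stat2 and Isg20) and 544 genes at an unadjusted p under 0.05. By limma-voom 0 of 28 members and 0 of 10554 genes were called, with 0 members and 302 genes at that unadjusted level. Estimates were above 0 with queuine for 16 of the 28 members (57.1%), against 50% of all tested genes. The median log2 fold change was 0.06 for the members and 1.945e-05 for all tested genes. The members' value was 0.25 without 0Q replicate 1, the library that stood apart, and -0.06 without 0Q replicate 3. With any other library left out it lay between 0.0003 and 0.076, so its sign changed only without 0Q replicate 3. For 2 members, Stat2 and Ifitm3, all 3 libraries of one group lay above those of the other. That is 7.14% of the members, against 8.27% of all tested genes.

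Together the 40 genes took 0.0938% ± 0.00207 of all counts without queuine and 0.0946% ± 0.00391 with it (SD, n = 3 each). Without Ifitm2 and Ifitm3 the shares were 0.0440% ± 0.00127 and 0.0471% ± 0.00246, with 100Q replicate 3 (0.0444%) inside the range of 0Q (0.0425% to 0.0449%).

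**Figure D3:**
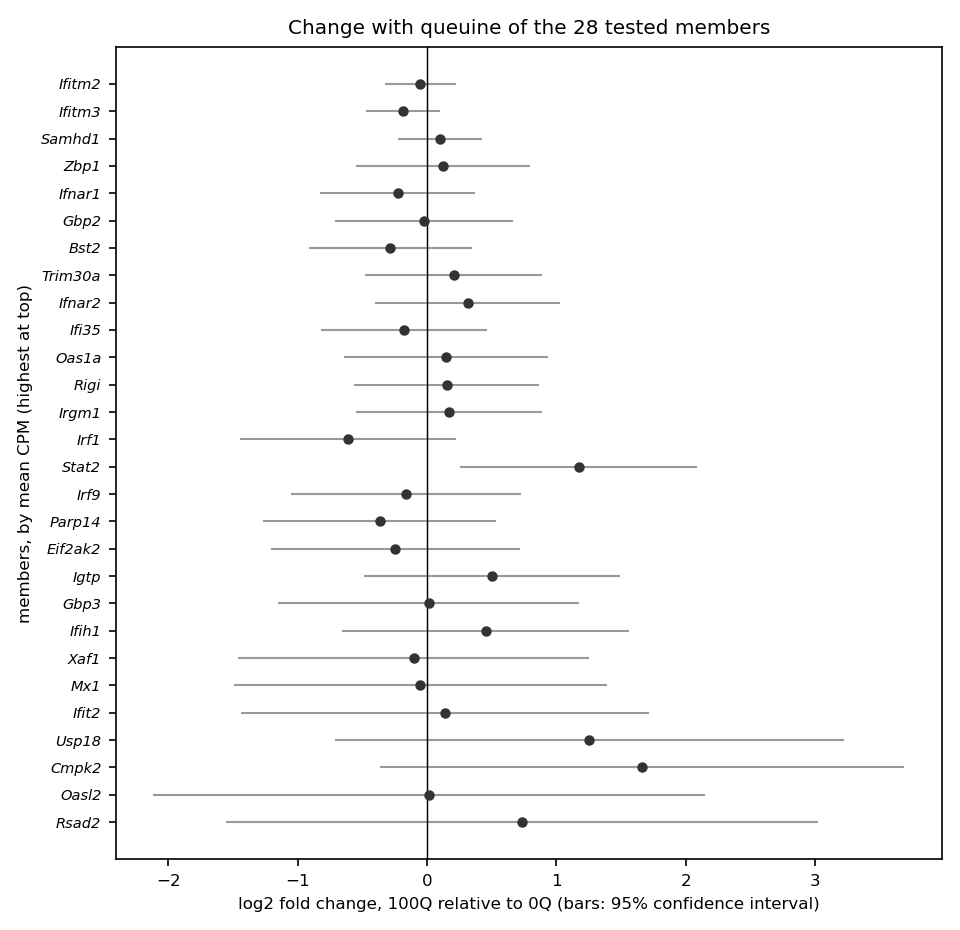
Log2 fold change of 100Q relative to 0Q for the 28 tested members, ordered by mean CPM, with 95% confidence intervals as bars. Intervals widen toward the low-abundance members at the bottom, and the interval of Stat2 (0.25 to 2.09) is the one that does not reach 0.

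The receptor was expressed in both groups. Ifnar1 (ENSMUSG00000022967, chromosome 16, 91281942 to 91305789) had 28.1, 23.3 and 39.2 CPM without queuine (0Q replicates 1, 2 and 3) and 21.5, 29.9 and 25.6 CPM with it. The groups overlapped, and the highest library was 0Q replicate 3. Its log2 fold change was -0.23 (SE 0.28, 95% interval -0.83 to 0.37). Ifnar2, the second chain (ENSMUSG00000022971, chromosome 16, 91169618 to 91202723), had 16.97, 20.2 and 13.5 CPM without queuine and 26.9, 23.6 and 13.7 CPM with it. Here 100Q replicates 1 and 2 were above every 0Q library and 100Q replicate 3 was not, with a log2 fold change of 0.31 (SE 0.34). Ifnar2 overlaps the coding gene Gm21970 on the same strand, and its counts were divided by the quantification.

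Of the signalling factors, Stat2 showed the smallest p of all members. Stat2, the subunit of ISGF3 that is specific to interferon signalling (ENSMUSG00000040033, chromosome 10, 128106352 to 128128735), had 6.80, 7.90 and 6.39 CPM without queuine and 12.5, 26.3 and 9.41 CPM with it. All 3 libraries of 100Q were higher, and 100Q replicate 2 was far above the rest. The log2 fold change was 1.17 (SE 0.44, unadjusted p = 0.0154 and adjusted p = 0.999 by edgeR's quasi-likelihood test). It was 0.62 without 100Q replicate 2 (unadjusted p = 0.202) and 0.77 by limma-voom (unadjusted p = 0.0993). Over all settings the adjusted p lay between 0.794 and 1.

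Irf9 did not show that separation. It encodes the DNA-binding subunit of ISGF3 and had 11.3, 8.88 and 12.2 CPM without queuine and 12.4, 5.27 and 11.03 CPM with it, where 100Q replicate 2, the library highest for Stat2, was the lowest. Its gene overlaps Rnf31 on the same strand. Irf1, a factor induced by both interferon types, had 10.95, 14.5 and 18.9 CPM without queuine and 6.46, 8.85 and 13.2 CPM with it. The groups overlapped, with 100Q replicate 3 above 0Q replicate 1, and the log2 fold change was -0.61 (SE 0.40, 95% interval -1.45 to 0.22).

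Of the 5 listed sensors of nucleic acid, 4 passed the filter on low counts and Dhx58 did not, and 2 had a mean of 10 CPM or more. Zbp1, which binds Z-form nucleic acid and can start necroptosis (ENSMUSG00000027514, chromosome 2, 173033815 to 173060724), had 49.7, 32.2 and 27.2 CPM without queuine and 62.7, 26.3 and 30.3 CPM with it. In each group replicate 1 was high and the other 2 were low, and the log2 fold change was 0.12 (SE 0.32). Rigi, which encodes RIG-I, had 19.1, 13.1 and 12.8 CPM without queuine and 14.1, 16.01 and 19.7 CPM with it. Ifih1, the long double-stranded RNA sensor MDA5, had 6.99, 4.79 and 3.06 CPM without queuine and 8.17, 7.58 and 4.91 CPM with it, a log2 fold change of 0.45 (SE 0.53). Eif2ak2, the kinase PKR that halts translation, had 8.69 ± 3.84 and 7.39 ± 0.853 CPM. In this role group 3 of 4 tested members had estimates above 0, and the 95% interval of every one of them included 0.

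The IFIT and OAS families, which recognise viral RNA or make the activator of RNase L, were mostly below the filter, with 3 of 8 tested. Oas1a (ENSMUSG00000052776, chromosome 5, 121031070 to 121046449) was the most abundant, with 19.8, 20.8 and 7.50 CPM without queuine and 16.9, 20.9 and 16.3 CPM with it. One library, 0Q replicate 3, was low, and the other 5 lay close together. The log2 fold change was 0.15 (SE 0.38, 95% interval -0.65 to 0.94), and it was -0.18 without 0Q replicate 3. Oas1a overlaps the coding gene Oas1d on the opposite strand, and its expected counts were not all whole. Ifit2 had 2.58 ± 1.06 and 2.87 ± 0.348 CPM. Oasl2 had 4.53, 2.68 and 0 CPM without queuine and 0.380, 2.94 and 3.96 CPM with it, so that each group held a library near 0. Summed over the 8 genes, 0Q replicate 3 had 12.5 CPM, and the other 5 libraries had 27.6 to 31.2 CPM. That library was also the shallowest of the 6.

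Among restriction factors the abundant members gave the tightest intervals. Ifitm2 (ENSMUSG00000060591, chromosome 7, 140534738 to 140536228) had 309, 261 and 257 CPM without queuine and 282, 243 and 272 CPM with it. The groups overlapped, and the log2 fold change was -0.05 (SE 0.13, 95% interval -0.33 to 0.22). Ifitm3 (ENSMUSG00000025492, chromosome 7, 140589499 to 140591282) had 232, 228 and 235 CPM without queuine and 175, 228 and 209 CPM with it. All 3 libraries of 100Q were lower, but the nearest libraries, 0Q replicate 2 at 228.05 and 100Q replicate 2 at 227.59 CPM, differed by less than counting error. Its log2 fold change was -0.18 (SE 0.14), and its 95% interval ran from 0.723-fold to 1.07-fold. Samhd1 had 117, 118 and 149 CPM without queuine and 131, 148 and 133 CPM with it, with an interval from 0.855-fold to 1.35-fold. These 3 were the members with both interval ends less than 1.5-fold from no change.

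The rarer restriction factors had wide intervals. Cmpk2 and Rsad2, which lie side by side on chromosome 12, encode a nucleotide kinase and viperin, an enzyme that makes a chain-terminating nucleotide. Cmpk2 had 2.08, 1.27 and 0 CPM without queuine and 5.89, 3.37 and 2.06 CPM with it, with an estimate on the log2 scale of 1.67 (SE 0.96, 95% interval -0.36 to 3.69, unadjusted p = 0.101 and adjusted p = 0.999 by edgeR). The lowest library of 100Q was just under the highest of 0Q. Rsad2 had 0, 0.705 and 3.89 CPM without queuine and 2.85, 1.90 and 2.43 CPM with it, where 0Q replicate 3, with no Cmpk2 count, was the highest. Bst2 had 30.2, 24.96 and 25.8 CPM without queuine and 25.3, 14.7 and 26.2 CPM with it. Trim30a, a negative regulator of Toll-like receptor signalling, had 17.8 ± 4.35 and 20.7 ± 4.43 CPM. Mx1, which carries a defective allele in C57BL/6 and most laboratory strains, had 3.65 ± 2.33 and 3.56 ± 0.313 CPM. In this role group 4 of 8 tested genes had estimates above 0 and 4 below.

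Usp18, the protease that removes ISG15 and dampens the receptor, had 0.378, 3.81 and 0.278 CPM without queuine and 6.27, 1.90 and 3.21 CPM with it. The values of 0Q replicates 1 and 3 rest on 2 and 1 counts, and 0Q replicate 2 lay among the 100Q libraries. Its log2 fold change was 1.25 (SE 0.93, 95% interval -0.71 to 3.22). Without 0Q replicate 2 it was 3.43 (unadjusted p = 0.0119 and adjusted p = 0.757 by edgeR). Of the other response genes, Ifi35, a binding partner of Nmi, had 17.4, 20.3 and 21.7 CPM without queuine and 16.3, 17.9 and 18.1 CPM with it, and the groups overlapped. Parp14, a mono-ADP-ribosyltransferase, had 6.97, 11.8 and 15.3 CPM without queuine and 7.22, 11.6 and 7.66 CPM with it, a log2 fold change of -0.37 (SE 0.43). Xaf1, a pro-apoptotic protein, had 4.37 ± 2.49 and 3.93 ± 1.48 CPM. All 3 tested members of this group had estimates below 0, and none passed the test.

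The GBP and IRG GTPases attack the vacuoles of intracellular pathogens and respond to type I and, more strongly, type II interferon. Gbp2 (ENSMUSG00000028270, chromosome 3, 142326349 to 142343779) had 37.8, 25.7 and 15.8 CPM without queuine and 33.6, 19.38 and 25.4 CPM with it. The whole 100Q range lay inside that of 0Q, and the log2 fold change was -0.02 (SE 0.33). Igtp had 5.48, 5.08 and 7.78 CPM without queuine and 5.86, 8.21 and 11.4 CPM with it, a log2 fold change of 0.50 (SE 0.47). It overlaps its relative Irgm2 on the same strand. Irgm1 had 14.1 ± 2.22 and 15.8 ± 2.66 CPM, and Gbp3 6.76 ± 2.99 and 6.69 ± 3.95 CPM.

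**Figure D4:**
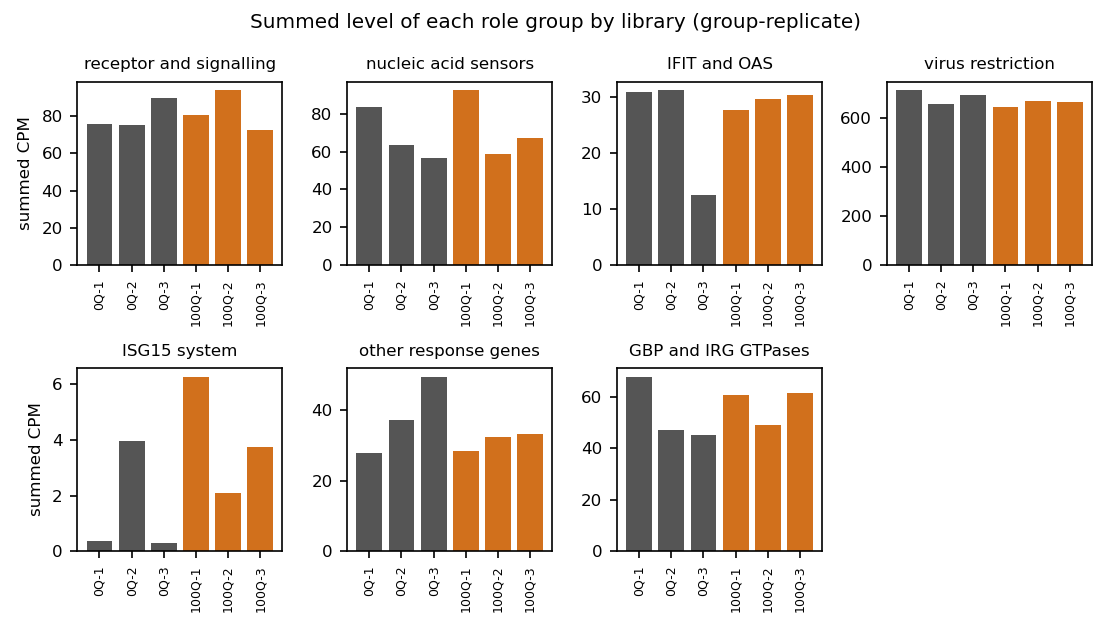
CPM summed over the members of each role group, 1 bar per library, with 0Q in grey and 100Q in orange and a separate axis from 0 for each group. The IFIT and OAS sum is lowest in 0Q replicate 3 at 12.5 CPM, and the sensor sum is highest in replicate 1 of each treatment, at 83.7 and 92.6 CPM.

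For each tested member the deviation of log2(CPM + 1) from its own mean over the 6 libraries was taken. The median deviation over members ran from -0.13 in 0Q replicate 3 to 0.07 in 100Q replicate 2, and 13 to 18 of the 28 members lay above their own mean in any 1 library. Among the 17 members at 10 CPM or more, 0Q replicate 3 had the highest value of 6 and the lowest of 5. It was highest for Ifnar1, Irf1, Parp14, Ifi35, Ifitm3 and Samhd1, and lowest for Oas1a, Gbp2, Ifnar2, Rigi and Stat2.

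The spread between libraries of a group varied widely among members of like abundance. In the class from 10 to 100 CPM the pooled SD of log2(CPM + 1) had a median of 0.41 for 14 members and 0.33 for all 4928 tested genes. These members had means of 10.09 to 38.07 CPM, the lower part of the class. The median SD of all tested genes fell with abundance, from 0.58 under 10 CPM to 0.16 at 100 CPM and over. The class is thus not matched to the members in abundance, and a difference from genes of the same level was not tested. The SD of Zbp1 was 0.56, that of Oas1a 0.56, of Stat2 0.52 and of Gbp2 0.51, all above the upper quartile of the class (0.45). Ifi35, with 0.12, was lower than all but 3.57% of the class. At 100 CPM and over, Ifitm2, Ifitm3 and Samhd1 had SDs of 0.13, 0.14 and 0.15, near the class median of 0.16.

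The 95% interval of the log2 fold change was no wider than 1 to each side for all 17 members at 10 CPM or more, and for 2 of the 11 members below 10 CPM. For 12 of the 28 members, with Ifitm2, Ifitm3, Samhd1, Zbp1, Oas1a, Gbp2, Bst2, Rigi and Ifnar1 among them, both interval ends were less than 2-fold from no change. For the others a 2-fold change in at least one direction was inside the interval.

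The rest of the interferon pathway was read from 131 other genes, of which 85 were tested. With edgeR 0 passed the threshold, 43 had estimates above 0 and 42 below, and the median log2 fold change was 0.01. The unadjusted p was under 0.05 for 2 of them, 2.35% against 2.93% of all tested genes. Tap1, a subunit of the peptide transporter, had 2.53 ± 1.31 CPM without queuine and 6.83 ± 3.13 CPM with it, and Ifi47, an IRG GTPase, had 26.1 ± 9.99 and 15.0 ± 3.04 CPM (SD, n = 3 each). Both had adjusted p = 0.999 by edgeR. Groups did not overlap for 13 of the 85, with 8 higher and 5 lower with queuine, which is 15.3% of them against 8.27% of all tested genes. Of the 10 listed receptor kinases, signal transducers and feedback regulators (the member Usp18 is on that list too) 9 were tested and 7 had estimates above 0. Stat3, which also serves cytokine receptors, had 24.6, 30.9 and 25.3 CPM without queuine and 38.8, 37.7 and 35.5 CPM with it, with all 3 libraries of 100Q higher (log2 fold change 0.47, SE 0.25, unadjusted p = 0.0747 and adjusted p = 0.999 by edgeR). Ptpn6, the phosphatase SHP-1, was the most abundant at 83.1 ± 11.4 and 88.9 ± 11.5 CPM.

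Upstream, 13 of 20 tested genes of sensing and of interferon induction had estimates above 0. Tlr7, the endosomal sensor of single-stranded RNA, had 20.0, 16.9 and 22.8 CPM without queuine and 27.4, 27.6 and 29.6 CPM with it, again with the groups apart (log2 fold change 0.51, SE 0.28, unadjusted p = 0.0860 and adjusted p = 0.999 by edgeR). Irf8, a factor of dendritic cell development, had 15.997 ± 4.71 and 23.7 ± 4.91 CPM. Tlr4, the lipopolysaccharide receptor, had 59.2 ± 5.08 and 58.5 ± 10.2 CPM. Of 7 tested genes of the type II pathway, 3 had estimates above 0 and 4 below. Of 54 tested further interferon-inducible genes, 31 had estimates below 0 and 23 above, and their median was -0.09. Ly6e, a surface protein that limits coronavirus entry, was the most abundant of them at 655 ± 112 and 575 ± 77.1 CPM.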

How the data were processed

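Messenger RNA of 6 libraries was analysed, 3 per group. The authors deposited expected counts per gene, neither normalized nor pooled, made with FastQC, STAR and RSEM on mm39 (GRCm39) per the submitters' processing notes. Tool versions, annotation release and strandedness: not given in the sources used here. RSEM divides ambiguous reads between genes: 20 of the 40 members had a value that was not whole, and 10 overlap another coding gene. Symbols, positions and exon lengths came from GENCODE release M39 on the same build, and 502 of 57132 identifiers had no match. Expected counts were rounded and tested with edgeR 4.0.16 in R 4.3.3 (filterByExpr, TMM, robust glmQLFit, glmQLFTest, Benjamini-Hochberg over all 10554 genes, threshold 0.05). SE is the absolute log2 fold change over the root of F. CPM used TMM-scaled totals of tested genes. The test was checked on simulated data. Known changes were placed only in abundant genes, a range that among tested members held Ifitm2, Ifitm3 and Samhd1 alone. The check therefore did not cover changes at the levels of the other members. DESeq2 1.42.0, limma-voom 3.58.1, other scalings and filters, a replicate block, a thinned 100Q replicate 3 and each library left out were alternatives. Libraries of a group differed by more than sampling noise (chi-square per gene 9.04 to 16.5).

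The members, role groups and gene lists were chosen with earlier results of these data known. Every member is accounted for. Library values are given for the most abundant and the smallest-p member of each role group, those with an unadjusted p under 0.05 or groups apart, and Irf7, Isg15, Ifitm3, Ifnar1 and Ifnar2. Library values of Irf1, Irf9, Rigi, Oasl2, Samhd1, Bst2, Rsad2, Stat3 and Tlr7 were added after they were seen. Of each other list the most abundant and the 2 smallest-p genes are named, except 1 item that is not reported here.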

Additional observations from a re-analysis of the deposited data

How the results depend on the processing

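All settings here were planned except the sum of Gvin1 and Gvin2. Over all genes 0 passed the threshold, except that omitting 0Q replicate 1 gave 2 calls (Gvin2, Gm46542) and omitting 0Q replicate 2 gave 1 (Gm2446), a range of 0 to 2 for single omitted libraries. The count of members past it was 0 throughout. The members' median log2 fold change of 0.06 ranged from -0.057 to 0.25 over omitted libraries and from 0.0094 to 0.12 in the other settings. The range of the members' median deviation over libraries was 0.19, with 0.29 from library totals alone and 0.13 and 0.21 with pseudocounts of 5 and 0.5. The members' median level per length, taken in each library and averaged, was 2.557 TPM, and 2.575 TPM with the longest transcript as length. That shift was smaller than the pooled SD between libraries of a group (0.257). The share of member genes with the response element was 41.9% with the core and 54.8% with the looser form. Over all genes in the promoter table it was 0.944% and 3.99%. The looser form includes every match of the core, so these shares could not fall. The cause of the other shifts was not tested. Of 190 estimates in settings with all libraries and no block, 9 changed sign, none of them called: Oasl2 (-0.0061) and Gbp3 (-0.0089) by DESeq2, Mx1 (0.058), Xaf1 (0.32) and Zbp1 (-0.039) by limma-voom, Gbp3 (-0.00085) with DESeq2 size factors, Gbp2 (0.015) with library totals alone, and Oasl2 (-0.0014) and Xaf1 (0.0031) with 100Q replicate 3 thinned. When replicate number entered as a block, 0 genes and 0 members passed, 421 genes had an unadjusted p under 0.05, and Mx1 (0.14), Gbp2 (0.028) and Gbp3 (-0.072) changed sign. Deviations of same-numbered libraries correlated at 0.025, 0.098 and -0.022, and the numbers were not taken to pair them. With a library left out 21 of 168 estimates changed sign, in 11 members: Eif2ak2 (-0.47 to 0.16), Gbp2 (-0.28 to 0.32), Gbp3 (-0.46 to 0.44), Ifit2 (-0.14 to 0.37), Ifitm2 (-0.10 to 0.038), Irf9 (-0.38 to 0.11), Mx1 (-0.42 to 0.50), Oas1a (-0.18 to 0.37), Oasl2 (-0.56 to 0.78), Xaf1 (-0.44 to 0.44) and Zbp1 (-0.37 to 0.41). Low counts limit what can be said of the 12 untested members and the 11 under 10 CPM. The part of sequencing depth in those low counts was not tested.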

Other observations

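Gvin1 and Gvin2, near-identical very large interferon-inducible GTPase genes on chromosome 7 (105755763 to 105814533 and 105544346 to 105603174, GRCm39), had their expected counts on one or the other gene in different libraries. Gvin2 had 231.03, 0 and 0.33 expected counts without queuine (0Q replicates 1, 2 and 3) and 138.35, 322.72 and 300.19 with it. Gvin1 had 0, 323.38 and 155.65 without queuine and 138.35, 0 and 698.03 with it, so that 3 of the 6 libraries had 0 counts on one gene of the pair and 100Q replicate 1 had equal values for both. Gvin2 passed the threshold without 0Q replicate 1 (log2 fold change 11.17, adjusted p = 0.00561 by edgeR). With the counts of the pair added before the fit, a step chosen after the data were seen, that call was lost (0.38, adjusted p = 0.999 by edgeR without the same library).

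Summed, the pair had 43.6, 45.6 and 43.3 CPM without queuine and 52.6, 68.0 and 52.8 CPM with it. All 3 libraries of 100Q were higher, with 44.2 ± 1.24 CPM against 57.8 ± 8.83 CPM (SD, n = 3 each). On the log2 scale that is a difference of 0.38 (SE 0.21) with unadjusted p = 0.0817 and adjusted p = 0.999 by edgeR over all genes.

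Isg20, an exonuclease of the interferon response, had 24 counts in 0Q replicate 1 and 0 or 1 count in each of the other 5 libraries. It was the member besides Stat2 with an unadjusted p under 0.05 by DESeq2 (it did not pass the filter of the main edgeR test).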
